A study of Mus musculus with 6 samples.

Results

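Connexins and pannexins are the membrane proteins that form gap junctions and related large channels, and 8 of their genes were followed in retinal ganglion cells (RGCs), the output neurons of the retina. The 8 genes, Gjd2, Gjc1, Gja1, Gja10, Gjb2, Gjb6, Panx1 and Panx2, were chosen by symbol, and each was found among the 24060 genes of the table. RNA was sequenced from RGCs of C57BL/6 mice, with 3 samples from embryonic day 18 (E18; replicates 1, 3 and 4) and 3 from postnatal day 5 (P5; replicates 6, 8 and 9). At both ages the retinas were digested with papain, macrophages were removed with antibodies, and RGCs were held on dishes coated with an antibody against Thy1 (CD90). The comparison asks how expression differs between RGCs that still extend axons readily, at E18, and RGCs that have lost much of this ability, at P5. No mutation or drug was involved, and the labels do not say whether the samples of an age came from separate litters, so p-values measure the spread between these samples, which may in part be technical.

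Connexins assemble into rings that dock between neighbouring cells and let ions and small molecules pass, which couples neurons as an electrical synapse. Pannexins form rings of similar build that seldom dock, and open as single-membrane channels through which ATP can leave the cell. In the developing retina, spontaneous waves of activity among RGCs are known to spread at first mainly through gap junctions and later mainly through acetylcholine.

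The gene counts of a sample summed to 81213639 reads at the least and 114512853 at the most. Of 16449 genes that passed a filter on low counts, 43.4% differed between the ages by edgeR's quasi-likelihood test at an adjusted p under 0.05, with 20.8% higher at E18 and 22.5% lower. Every edgeR adjusted p given here comes from this test, and ranges over the alternatives also hold values from DESeq2 and from edgeR's exact test. The RGC label was set beside 15 RGC markers, whose summed level was 7221 to 8175 CPM (gene counts scaled to a common library size) at E18 and 8050 to 9434 CPM at P5. By the edgeR test 3 of them (Sncg, Isl1 and Ebf1) were higher at E18 and 4 (Pou4f3, Thy1, Nefl and Slc17a6) were lower. Thy1, the panning antigen, was 2.24-fold and Slc17a6 2.63-fold higher at P5, whereas Isl1 was 2.15-fold higher at E18. The sum therefore hides differences in single RGC markers. E18 replicates 1 and 3 stood apart in their higher levels of markers of other retinal cells. Of 12 progenitor markers, 7 were higher at E18 and none lower by the edgeR test, and the sum ran from 665 to 974 CPM at E18 and from 524 to 667 CPM at P5. Pax6, which was not called, made up most of this sum in each sample (622 to 751 CPM at E18 and 498 to 629 CPM at P5). Ccnd1, the next largest by its E18 mean, had 146, 34.5 and 14.2 CPM in E18 replicates 1, 3 and 4 and 5.54 to 10.9 CPM at P5. The sum of 11 amacrine markers was 106 CPM in E18 replicate 1, 212 CPM in E18 replicate 3 and 18.28 CPM in E18 replicate 4, against 37.6 to 48.7 CPM at P5. Markers of other cells are taken up again beside some of the genes they may touch, but the progenitor values are not repeated. Each gene's result was also computed with E18 replicate 4 as the only E18 sample.

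Of the 8 genes, 5 had enough reads to be tested. Gjc1 and Gja10 were higher at E18, Gjd2 and Panx2 were lower, and Panx1 did not pass. The remaining genes, Gja1, Gjb2 and Gjb6, had at most 15 reads in any sample and stayed below the filter. The 4 genes called can be read against the 43.4% called among all genes tested, with the reservation that passing the filter favours genes that are high in one age. In each of the 5 tested genes the lowest value of one age lay above the highest of the other, as held in 56.1% of all genes tested. In the edgeR comparison the median log2 fold change, E18 over P5, was 0.21 over these 5 genes and 0.00473 over all genes tested.

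**Figure D1:**
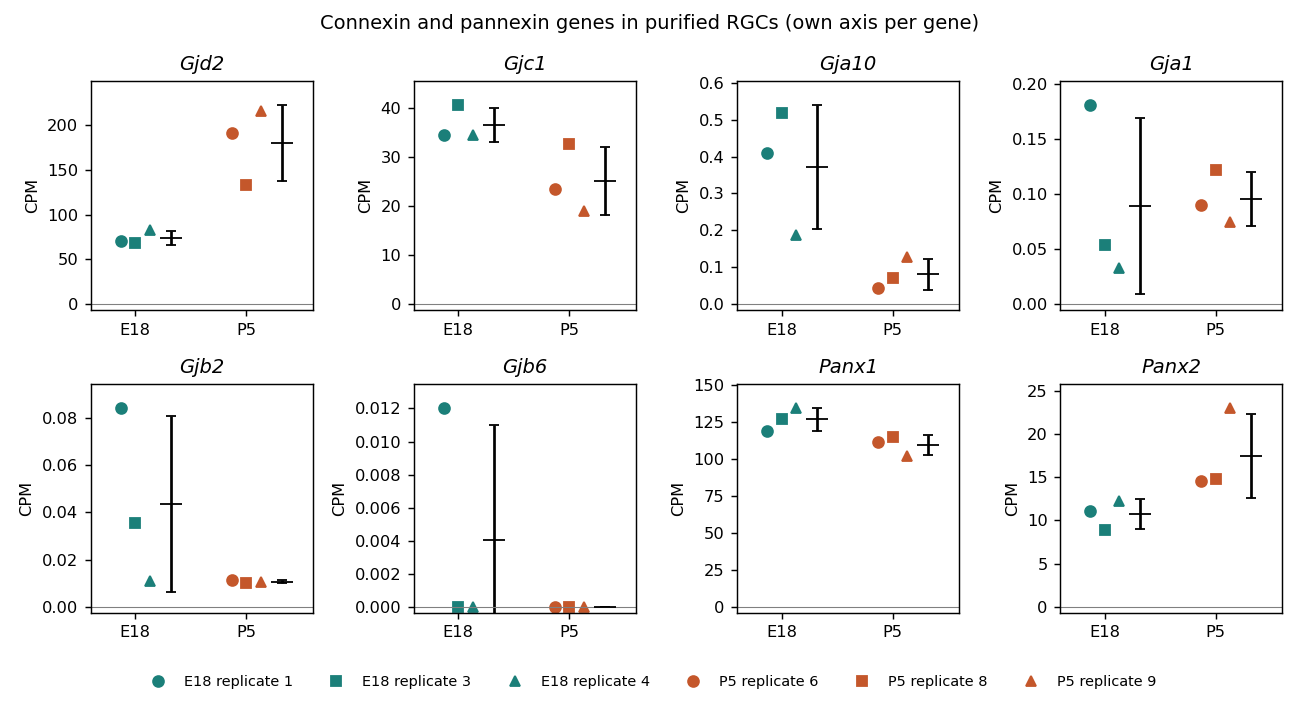
CPM of each connexin and pannexin gene (vertical axis, its own linear scale from 0 for each gene) in the E18 and P5 samples, with 1 symbol per sample and the mean ± SD (n = 3) as black bars. Gjd2 and Panx2 sit higher in each P5 sample than in any E18 sample, Gjc1 and Gja10 sit lower, and Gja1, Gjb2 and Gjb6 stay under 0.2 CPM.

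Gjd2 encodes Cx36, the main connexin of electrical synapses between neurons, and it was the connexin with the most RNA in these cells. It lies on the minus strand of chromosome 2 (114009601 to 114013619, mm10; ENSMUSG00000068615.4). Its level was 70.7, 68.7 and 82.8 CPM in E18 replicates 1, 3 and 4 and 191, 133 and 216 CPM in P5 replicates 6, 8 and 9. Every P5 sample lay above every E18 sample, and P5 replicate 8 was the nearest to E18. The means were 74.1 ± 7.68 CPM at E18 and 179.8 ± 42.8 CPM at P5 (mean ± SD, n = 3 each), a 2.43-fold higher level at P5. The log2 fold change, E18 over P5, was -1.28 (SE 0.172, edgeR adjusted p = 0.000903). The call held when any sample was left out, with log2 fold changes from -1.48 to -1.13, and with E18 replicate 4 as the only E18 sample (-1.11, edgeR adjusted p = 0.0252, with 5.26e-11 to 0.0252 over the alternatives).

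Cx36 is also known from amacrine and bipolar cells, and in bulk RNA fewer cells of a type and less RNA per cell cannot be told apart. The summed level of 9 bipolar markers moved with Gjd2, from 56.3 to 64.7 CPM at E18 and from 86.4 to 118 CPM at P5, most of it Prkca (40.7 to 45.5 CPM and 64.8 to 92.2 CPM). Of its 7 tested genes 3 were lower at E18 and 1 was higher by the edgeR test. Besides Prkca the lower ones were Trpm1, a channel of ON bipolar cells (2.19 to 2.90 CPM at E18 and 3.88 to 5.13 CPM at P5), and Grik1, a kainate receptor (6.11 to 7.47 CPM and 14.5 to 19.3 CPM). By contrast, Grm6, the glutamate receptor of ON bipolar cells, and Vsx1, a bipolar transcription factor, were near 0, with at most 0.0362 CPM and 0.0532 CPM in any sample. The amacrine sum was highest in E18 replicate 3 (212 CPM, of which Tfap2b was 119 CPM). Gjd2 was lowest in that sample, but only narrowly, with 68.7 CPM against 70.7 CPM in E18 replicate 1. The part of amacrine and bipolar cells in the Gjd2 difference was not tested.

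The promoter of Gjd2 is shown because this gene carries the largest difference among the abundant connexins and pannexins. The window runs from 250 bases before the RefSeq transcription start to 50 bases after it (GRCm38.p6, chr2:114013570-114013869, minus strand, 75% G and C). Capitals mark a GC box (GGGCGG), the letters bound by Sp1-type factors, whose first base lies at position -33 from the start. The GC box was sought on both strands and is present in 35.7% of 32851 mouse promoter windows of this length, so its presence is a description of the window.

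Gjd2: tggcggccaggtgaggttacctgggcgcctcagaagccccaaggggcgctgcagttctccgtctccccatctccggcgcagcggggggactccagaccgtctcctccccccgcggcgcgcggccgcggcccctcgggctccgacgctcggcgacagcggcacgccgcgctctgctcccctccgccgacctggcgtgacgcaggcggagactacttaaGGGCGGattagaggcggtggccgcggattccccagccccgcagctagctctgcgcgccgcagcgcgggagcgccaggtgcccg

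An antisense RNA, A530058N18Rik, starts within the first exon of Gjd2 on the opposite strand (chromosome 2, 114013563 to 114068324, plus strand) and shares 57 exonic bases with it. It was looked at after its overlap was known. Its level was 5.01, 4.07 and 4.87 CPM in the E18 samples and 16.1, 8.61 and 14.8 CPM in the P5 samples. P5 was thus 2.84-fold higher (log2 fold change of -1.50 with an SE of 0.235, edgeR adjusted p = 0.00166). As in Gjd2, the ages did not overlap and P5 replicate 8 was the lowest P5 sample. Whether counting used strand is not stated, so reads from the shared 57 of 2879 exonic bases of Gjd2 cannot be assigned to one gene.

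Gjc1 encodes Cx45, a connexin of some RGC and bipolar cell types and of the early heart and vessels, and it was the only other connexin among the 8 above 1 CPM. The gene (ENSMUSG00000034520.14) lies on the minus strand of chromosome 11, from 102799579 to 102819700. It had 34.5, 40.6 and 34.4 CPM in E18 replicates 1, 3 and 4 and 23.5, 32.6 and 19.0 CPM in P5 replicates 6, 8 and 9. The ages did not overlap, although P5 replicate 8 came close to the lowest E18 sample. The means were 36.5 ± 3.54 CPM at E18 and 25.0 ± 6.90 CPM at P5 (mean ± SD, n = 3 each), with a 1.46-fold higher level at E18 (log2 fold change of 0.54 with an SE of 0.185, edgeR adjusted p = 0.0415). Of 6 fits that each omitted a sample it failed in 5, namely without E18 replicate 1 (adjusted p = 0.0699), 3 (0.134) or 4 (0.0631) and without P5 replicate 6 (0.133) or 9 (0.108). Over the alternatives run, adjusted p went from 0.00256 to 0.328. The log2 fold change stayed positive, from 0.38 to 0.76.

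The makeup of the connexin RNA differed between the ages. Gjd2 was higher at P5 and Gjc1 was lower there, although the Gjc1 call was lost in 5 of 6 omissions. Shares were taken of the summed CPM per kilobase of exon over the 6 connexin genes, which corrects for gene length. The share of Gjd2 was 77.4%, 74.0% and 80.5% in the E18 samples and 93.4%, 87.5% and 95.1% in the P5 samples. Gjc1 held 21.8%, 25.2% and 19.2% at E18 and 6.60%, 12.4% and 4.82% at P5. The ratio of Gjd2 to Gjc1 per kilobase was 3.56 ± 0.625 at E18 and 13.7 ± 6.34 at P5 (mean ± SD, n = 3 each), and 19.7 in P5 replicate 9 against 7.08 in P5 replicate 8. The remaining connexins, Gja1, Gja10, Gjb2 and Gjb6, each held under 1% in every sample. These shares are descriptions without a test, and they depend on the gene length used. With the longest transcript in place of all exons, Gjd2 held 70.1% at E18 and 88.8% at P5. The ratio of Gjd2 to Gjc1 was then 2.43 ± 0.426 at E18 and 9.31 ± 4.32 at P5 (mean ± SD, n = 3 each).

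**Figure D2:**
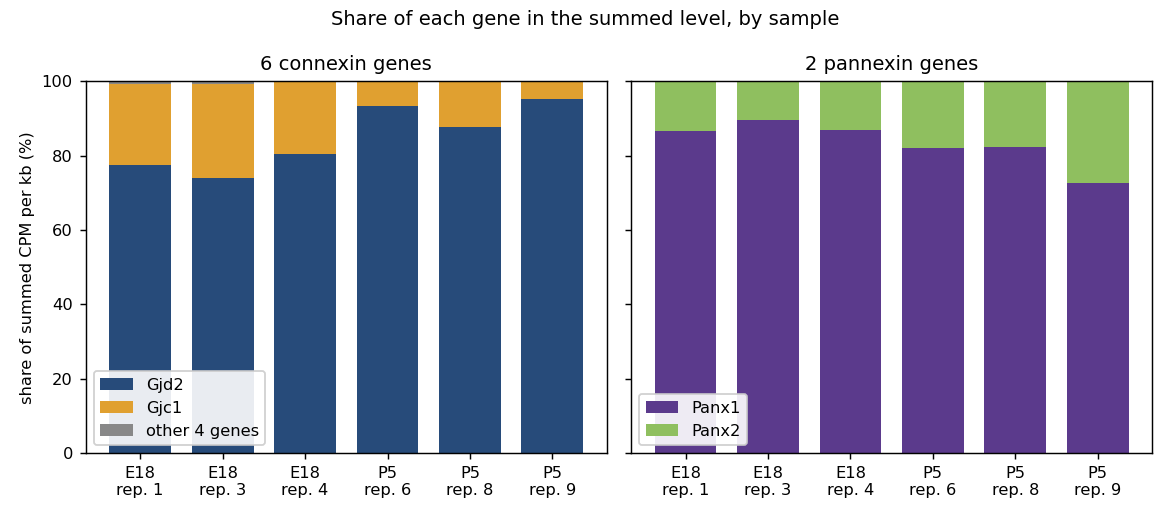
Share (%) of each gene in the summed CPM per kilobase of exon, by sample, for the 6 connexin genes (left) and Panx1 with Panx2 (right). Gjd2 takes 74.0% to 80.5% of the connexin level in E18 samples against 87.5% to 95.1% in P5 samples.

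Gja10 encodes Cx57, known in the retina as the connexin of horizontal cells, and it had the largest fold difference of the 5 tested genes, at a very low level. The gene lies on the minus strand of chromosome 4 (32596960 to 32602760; ENSMUSG00000051056.5). It had 34, 58 and 17 reads in E18 replicates 1, 3 and 4 and 4, 7 and 12 reads in P5 replicates 6, 8 and 9. These correspond to 0.410, 0.517 and 0.188 CPM and to 0.0451, 0.0711 and 0.128 CPM. The ages did not overlap, E18 replicate 4 was the closest to P5, and the gene passed the filter through its E18 reads alone. The level was 4.52-fold higher at E18 (log2 fold change of 2.18 with an SE of 0.526, edgeR adjusted p = 0.0109). The call was lost without E18 replicate 3 (log2 fold change 1.86, adjusted p = 0.0534) and with E18 replicate 4 as the only E18 sample (1.20, adjusted p = 0.422). Over the alternatives run in edgeR and DESeq2, adjusted p went from 0.000505 to 0.422.

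Several markers of horizontal and amacrine cells were, like Gja10, highest in E18 replicate 3, although not each gene of these lists was. Of 7 tested horizontal cell markers, 4 were higher at E18 and 1 was lower by the edgeR test, and the sum of the 8 listed genes was 92.8 to 151 CPM at E18 and 81.3 to 89.8 CPM at P5. Lhx1, a transcription factor that defines horizontal cells, had 0.470, 0.954 and 0.0442 CPM in E18 replicates 1, 3 and 4, 0.0406 CPM in P5 replicate 8 and no read in the other P5 samples. Tfap2a, shared by amacrine and horizontal cells, had 2.86, 6.93 and 0.133 CPM in the same E18 samples and 0.0813 to 0.147 CPM at P5. E18 replicate 3 was thus the highest in Gja10, Lhx1 and Tfap2a alike, and in E18 replicate 4 Tfap2a fell within the P5 range while Gja10 stayed above it. Of 10 tested amacrine markers, 5 were higher at E18 and 1 was lower by the edgeR test. The lower one was Neurod2, with 0.928 to 1.33 CPM at E18 and 13.8 to 22.9 CPM at P5, and the amacrine sum of E18 replicate 4 lay below each P5 sample. The part of these cells in the Gja10 difference was not tested.

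**Figure D3:**
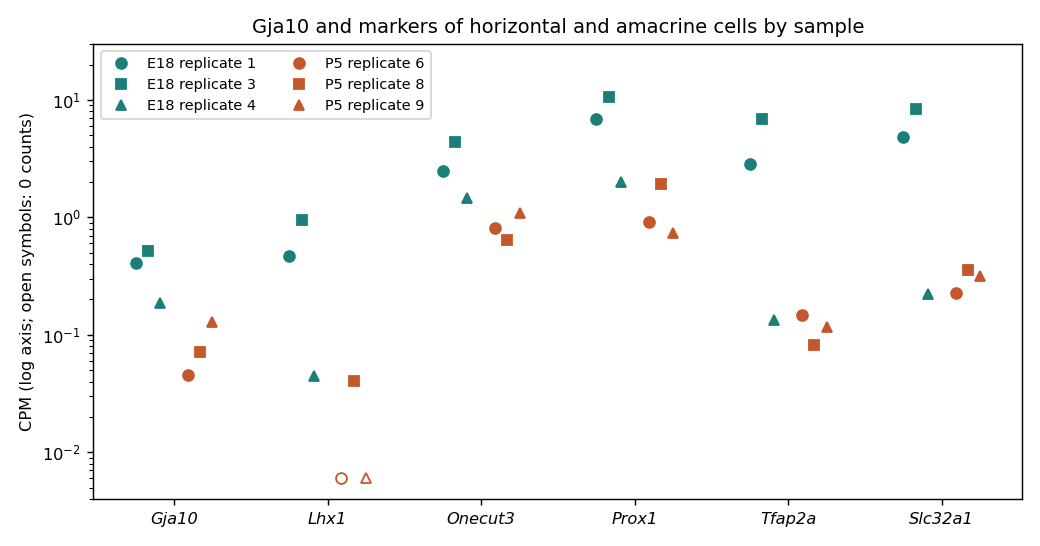
CPM (log axis) of Gja10 and of markers of horizontal cells (Lhx1, Onecut3), of both horizontal and amacrine cells (Prox1, Tfap2a) and of amacrine cells (Slc32a1) in each sample. Open symbols at the bottom stand for samples without a read, and E18 replicate 3 is the highest sample in each of the 6 genes.

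The Gja10 window is shown for comparison with that of Gjd2, since it is poorer in G and C (42.7%) and holds other letters near the RefSeq start. It lies at chr4:32602333-32602632 (GRCm38.p6, minus strand). The whole window falls within the GENCODE span of the gene, which begins at 32602760 on this strand, so RefSeq and GENCODE place the start differently. Capitals mark the letters TATAAA of a TATA box, here on the opposite strand and so not in the direction of the gene (first base at -70). They also mark the core of a cAMP response element (TGACGT, first base at -62). Sought on both strands, TATAAA is present in 13.6% and TGACGT in 7.51% of the mouse promoter windows.

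Gja10: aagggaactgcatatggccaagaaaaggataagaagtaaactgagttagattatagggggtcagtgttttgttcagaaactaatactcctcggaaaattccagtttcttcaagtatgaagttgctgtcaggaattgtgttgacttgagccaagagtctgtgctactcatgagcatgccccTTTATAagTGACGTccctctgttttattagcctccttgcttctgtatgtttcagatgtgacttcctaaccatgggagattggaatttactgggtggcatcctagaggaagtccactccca

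Gja1, Gjb2 and Gjb6 are connexins of non-neuronal cells, and none of them exceeded 0.2 CPM. Gja1 encodes Cx43, the main connexin of astrocytes, of Müller glia and of many progenitors (chromosome 10, 56377330 to 56402513, plus strand). It had 15, 6 and 3 reads in E18 replicates 1, 3 and 4 and 8, 12 and 7 reads in P5 replicates 6, 8 and 9, so the ages overlapped. The ratio of E18 to P5 was 0.875, with an exact 95% interval of 0.483 to 1.58 that covers counting error only. E18 replicate 1, the highest sample in Gja1, was also the highest in Slc1a3, the glutamate transporter of glia and progenitors (16.2 CPM, against 0.475 to 2.80 CPM in the other samples). In P5 replicate 8, the next highest in Gja1, Slc1a3 had 1.11 CPM. Glul, Vim and Sox9 also peaked in E18 replicate 1, whereas the rest of the glial list peaked elsewhere, such as Rlbp1 in P5 replicate 6 and Clu in P5 replicate 9. Of 11 tested glial markers, 3 were higher at E18 and 1 was lower by the edgeR test. The part of glia and progenitors in the Gja1 level was not tested. Of 13 Müller glia and astrocyte markers the sum was 437 to 476 CPM at E18 and 353 to 370 CPM at P5, made up mostly of Glul and Vim, whereas the astrocyte genes Gfap and Pax2 stayed at or below 0.117 CPM and 0.147 CPM.

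Gjb2 encodes Cx26 and Gjb6 encodes Cx30, which couple the supporting cells of the cochlea, and Cx30 is also made by astrocytes. Both lie on the minus strand of chromosome 14, Gjb2 from 57098600 to 57104702 and Gjb6 from 57123303 to 57133611. Gjb2 had 7, 4 and 1 reads in the E18 samples and 1 read in each P5 sample. E18 replicate 4 was level with the P5 samples. The ratio of E18 to P5 was 3.94, with an exact 95% interval of 1.06 to 21.7 for counting error only, which leaves out the spread between samples. Gjb6 had a single read, in E18 replicate 1. The absence of reads in the P5 samples allows a level of up to 0.0305 to 0.0338 CPM per sample (3 reads), so no fold is given.

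Panx1 was the pannexin with the most RNA, and its small difference between the ages did not pass the test. It encodes the widely expressed pannexin that releases ATP, and it is known in RGCs. The gene lies on the minus strand of chromosome 9, from 15002128 to 15045478. It had 119, 127 and 135 CPM in E18 replicates 1, 3 and 4 and 112, 114.9 and 102 CPM in P5 replicates 6, 8 and 9. The lowest E18 sample lay just above the highest P5 sample. Means of 127 ± 7.97 CPM and 110 ± 6.57 CPM (SD, n = 3 each) gave a log2 fold change of 0.21, which did not pass (SE 0.0908, edgeR adjusted p = 0.0900). Without P5 replicate 8 it crossed the threshold narrowly (0.23, edgeR adjusted p = 0.0497, against 0.0497 to 0.316 over the alternatives).

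The Panx1 window is shown because it was the only one of the windows found for these genes that held CCGGAAG, the core bound by Ets factors such as Elk-1, the factor that the study followed. The window lies at chr9:15045429-15045728 (GRCm38.p6, minus strand), and capitals mark the core at position -37 (read on the opposite strand) and at position 13 after the start. This core, sought on both strands, is present in 8.86% of the mouse promoter windows.

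Panx1: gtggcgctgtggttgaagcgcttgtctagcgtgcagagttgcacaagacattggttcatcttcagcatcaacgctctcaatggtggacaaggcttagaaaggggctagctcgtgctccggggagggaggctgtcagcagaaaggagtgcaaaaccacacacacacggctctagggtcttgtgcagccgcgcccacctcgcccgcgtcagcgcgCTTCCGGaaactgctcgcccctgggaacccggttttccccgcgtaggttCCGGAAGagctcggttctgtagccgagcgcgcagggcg

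Panx2, a pannexin mostly of the nervous system that resides largely in intracellular membranes, was lower at E18. It lies on the plus strand of chromosome 15 (89059734 to 89073567). Its level was 11.1, 8.88 and 12.2 CPM in E18 replicates 1, 3 and 4 and 14.6, 14.8 and 23.1 CPM in P5 replicates 6, 8 and 9. The ages did not overlap, and P5 replicate 9 stood well above the other P5 samples. The P5 level was 1.63-fold higher (log2 fold change of -0.70 with an SE of 0.205, edgeR adjusted p = 0.0234). Without P5 replicate 9 the log2 fold change was -0.45 and the call was lost (adjusted p = 0.0643), as it was without E18 replicate 1 (0.0563) or 3 (0.0904). The alternatives of this edgeR fit, DESeq2 included, spanned adjusted p values of 0.00328 to 0.337. Per kilobase of exon, Panx2 made up 12.4% ± 1.66 of the pannexin level at E18 and 21.01% ± 5.54 at P5 (mean ± SD, n = 3 each), and 27.4% in P5 replicate 9.

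Levels of different genes can be compared only per length. At E18, Gjd2 (25.7 ± 2.67 CPM per kilobase of exon) and Panx1 (21.1 ± 1.32) led, followed by Gjc1 (7.29 ± 0.708), Panx2 (2.98 ± 0.474) and Gja10 (0.172 ± 0.0779; SD, n = 3 each). The E18 ranges of these genes did not overlap, with Gjd2 at 23.8 to 28.8 and Panx1 at 19.7 to 22.4. At P5 the order was the same. Gjd2 stood at 62.5 ± 14.8 CPM per kilobase and Panx1 at 18.2 ± 1.09 (SD, n = 3 each). Gjc1 (3.80 to 6.51) and Panx2 (4.05 to 6.41) then overlapped and could not be ranked. In the same units the ratio of Gjd2 to Panx1 was 1.13 to 1.29 in E18 samples against 2.42 to 4.42 in P5 samples.

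The rest of both families, 15 further genes, was scarce, with no value above 3.26 CPM. Of these, 6 passed the filter, 1 was higher at E18 and 1 was lower, a share near the 43.4% called among all genes tested, and their median log2 fold change was -0.17. Gja4, which encodes the endothelial Cx37, had 1.27, 0.963 and 1.46 CPM at E18 and 2.30, 2.20 and 3.26 CPM at P5 (log2 fold change of -1.08 with an SE of 0.258, edgeR adjusted p = 0.0106). Each P5 sample lay above each E18 sample. The call was lost without E18 replicate 3 (edgeR adjusted p = 0.0515, against 0.000320 to 0.231 over the alternatives). Endothelial and pericyte markers went both ways. Of 8 tested, Pecam1, Tek and Rgs5 were lower at E18 and Kdr was higher, and the sum of the 9 listed genes was 16.6 to 73.1 CPM at E18 and 14.8 to 18.101 CPM at P5. Kdr made up most of this sum at E18, with 69.5, 62.9 and 14.1 CPM in E18 replicates 1, 3 and 4, and had 4.79 to 11.3 CPM at P5. The 8 listed genes other than Kdr summed to 2.01 to 3.57 CPM at E18 and 6.81 to 9.99 CPM at P5, the same direction as Gja4. Cdh5, which defines endothelium, did not exceed 0.0609 CPM. The part of vessel cells in the Gja4 difference was not tested.

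Gja6 encodes Cx33, a connexin known from the testis. It had 38, 40 and 22 reads at E18 and 8, 18 and 15 reads at P5 (log2 fold change of 1.27 with an SE of 0.407, edgeR adjusted p = 0.0332). It no longer passed without E18 replicate 1 or 3 or P5 replicate 6 or 9, and in DESeq2, with adjusted p values of 0.0139 to 0.577 over the alternatives. Gjb1, which encodes the Cx32 of myelinating glia, and Gjd3 did not pass, with edgeR adjusted p values of 0.475 and 0.203. Of the 15 genes, 9, Gja5, Gjc3 and Panx3 among them, had at most 13 reads in any sample and were not tested.

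Scaffolds and adaptors anchor connexin channels or turn them over. Among 9 measured, 3 were higher at E18 and none was lower in the quasi-likelihood fit, against 20.8% and 22.5% of all genes tested, and the median log2 fold change was 0.15. With DESeq2, with edgeR's exact test, with no filter, and without E18 replicate 1 or P5 replicate 8, 1 of the 9 was called lower. The 3 higher genes were Dbn1 (drebrin, an actin-binding partner of Cx43; 625 ± 65.3 CPM at E18 and 444 ± 15.2 CPM at P5), Nedd4 (a ubiquitin ligase that acts on Cx43; 2845 ± 116 and 2142 ± 221 CPM) and Tjp3 (the scaffold ZO-3; 3.39 ± 0.534 and 1.77 ± 0.393 CPM; SD, n = 3 each throughout). Their log2 fold changes were 0.49, 0.41 and 0.94, with edgeR adjusted p values of 0.00424, 0.00859 and 0.0127. Tjp1, which encodes ZO-1, the scaffold that binds the tail of Cx36, had 81.2 to 90.6 CPM at E18 and 81.2 to 99.2 CPM at P5 and did not pass (log2 fold change of -0.03 with an SE of 0.102, edgeR adjusted p = 0.803).

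Among 12 kinases known to phosphorylate connexins, 3 were higher at E18 and 6 were lower, where 20.8% and 22.5% of all genes tested were, and the median log2 fold change was -0.25. The subunits of Ca2+/calmodulin-dependent kinase II, which binds Cx36 and strengthens coupling in retinal neurons, were lower at E18 for Camk2a (5.67 to 7.83 CPM, against 11.1 to 16.5 CPM at P5), Camk2b (108 to 141 CPM, against 192 to 271 CPM) and Camk2d (355 to 441 CPM, against 466 to 497 CPM). Their log2 fold changes were -0.94, -0.88 and -0.30 (edgeR adjusted p = 0.00508, 0.00287 and 0.0390), whereas Camk2g was -0.13 and did not pass (adjusted p = 0.344). Prkacb, a catalytic subunit of protein kinase A, and Prkca, a protein kinase C, were lower as well, with log2 fold changes of -0.83 and -0.89. Src, Csnk1d (casein kinase 1 delta) and Akt1, which act on Cx43, were higher at E18 by 0.36, 0.49 and 0.34 on the log2 scale. Without E18 replicate 3, or without P5 replicate 6, the count called fell from 9 to 5, all of them lower at E18. The kinases called higher at E18 also numbered 0 without E18 replicate 4 and 1 without P5 replicate 9, with 6 called in each case.

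**Figure D4:**
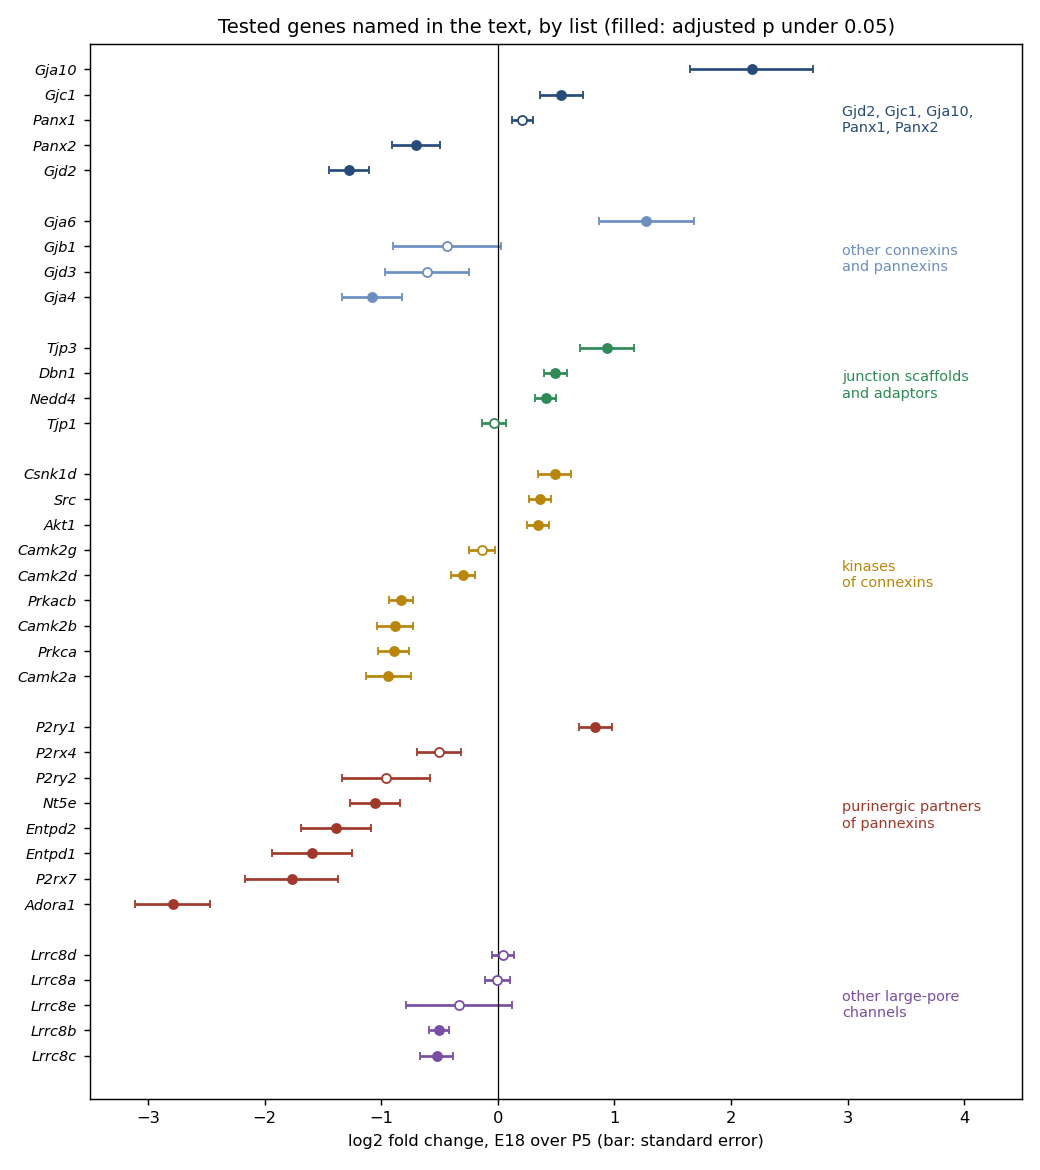
Log2 fold change, E18 over P5 (horizontal axis), of the tested genes named here, from the 8 connexin and pannexin genes and from the lists of further family genes, scaffolds, kinases, purinergic partners and other large-pore channels, with standard errors of the edgeR fit as bars. Filled symbols passed an adjusted p of 0.05, and Adora1, P2rx7, Entpd1, Entpd2 and Nt5e are filled on the left, lower at E18.

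Genes that act on ATP and adenosine outside the cell, downstream of pannexin channels, included large differences. Of 12 such genes, 6 were lower and 1 was higher at E18, beside 22.5% and 20.8% of all genes tested, with a median log2 fold change of -1.22. Adora1, the inhibitory adenosine A1 receptor, had 9.46, 8.62 and 11.6 CPM at E18 and 58.4, 40.7 and 106 CPM at P5. This 6.92-fold higher P5 level was the largest in the list (log2 fold change of -2.79 with an SE of 0.321, edgeR adjusted p = 0.000498). The ectoenzymes that convert ATP to adenosine were low at both ages and lower at E18. These were Entpd1 (0.534 ± 0.158 CPM at E18 and 1.61 ± 0.525 CPM at P5), Entpd2 (1.13 ± 0.357 and 2.97 ± 0.688 CPM) and Nt5e (1.06 ± 0.120 and 2.20 ± 0.165 CPM; SD, n = 3 each throughout), with edgeR adjusted p values of 0.00669, 0.00672 and 0.00513.

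The ATP receptors divided. P2rx7, the ATP-gated channel that couples to Panx1, had 12, 19 and 7 reads at E18 and 49, 33 and 44 reads at P5 (log2 fold change of -1.77 with an SE of 0.397, edgeR adjusted p = 0.00788). P2ry1, a G protein-coupled ADP receptor, was higher at E18, with 19.4, 19.7 and 24.0 CPM against 12.01, 13.1 and 10.2 CPM (log2 fold change of 0.84 with an SE of 0.140, edgeR adjusted p = 0.00222). P2rx4 (adjusted p = 0.0571) and P2ry2 (adjusted p = 0.0675) did not pass. Microglia also express P2rx7 and Entpd1, and vessel cells Entpd1. The sum of 11 microglial markers was 4.90 to 5.34 CPM at E18 and 3.61 to 3.73 CPM at P5. Of 9 tested, 1 was called, higher at E18. Vessel cell markers went both ways, and of 8 tested, Pecam1, Tek and Rgs5 were lower at E18 like Entpd1. Kdr, the most abundant of them, was higher at E18 (14.1 to 69.5 CPM, against 4.79 to 11.3 CPM at P5). The remaining tested vessel markers did not pass. Without Kdr, the 8 other listed vessel markers summed to 2.01 to 3.57 CPM at E18 and 6.81 to 9.99 CPM at P5. The part of these cells in the P2rx7 and Entpd1 differences was not tested.

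Among other large-pore channels, Lrrc8b and Lrrc8c, subunits of the volume-regulated anion channel, were lower at E18, with 52.3 ± 1.91 against 74.1 ± 2.86 CPM and 8.10 ± 1.13 against 11.6 ± 0.394 CPM (SD, n = 3 each; log2 fold changes -0.50 and -0.52, edgeR adjusted p = 0.00235 and 0.0180). They were the 2 genes called of 5 tested in this list, a share near the 43.4% called among all genes tested. Without E18 replicate 1 or 3 only 1 gene of this list was called. Lrrc8a, the subunit that every such channel needs, had 88.8 ± 4.80 and 89.1 ± 10.7 CPM and did not pass (log2 fold change -0.01, edgeR adjusted p = 0.973). The median log2 fold change of the 5 tested genes was -0.33. Lrrc8d and Lrrc8e did not pass either, and Calhm1 and Calhm2, of another family of ATP channels, had at most 19 reads in any sample.

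The genes whose pattern was most like each tested connexin or pannexin were found by Pearson's correlation of log2 CPM over the 6 samples, among the 13422 genes averaging 1 CPM or more. These correlations are a description, since the 6 points share their age groups. Gjd2 was followed most closely by Ky, Tmem117 and Bpnt1 (r = 0.999 for each), and Tmem117 had 14.7, 14.7 and 17.02 CPM at E18 and 45.5, 28.7 and 51.1 CPM at P5. Thumpd1, Mllt4 and Suv420h1 were most like Gjc1 (r = 0.998 for each). Mllt4, which encodes the junction protein afadin, had 364, 412 and 368 CPM at E18 and 272, 339 and 229 CPM at P5. For Gja10 these genes were Zfp593, Polr2a and Chst9 (r = 0.997, 0.990 and 0.989), for Panx1 Trim39, E030011O05Rik and Tubb2b (r = 0.998, 0.996 and 0.990) and for Panx2 Them6, Tomm40 and Dnm1 (r = 0.993, 0.993 and 0.992). Dnm1, the dynamin of synaptic vesicle recycling, had 84.3, 74.7 and 90.3 CPM at E18 and 104, 113 and 155 CPM at P5, with P5 replicate 9 highest as in Panx2.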

How the data were processed

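RGCs of 3 E18 and 3 P5 samples were purified by immunopanning and sequenced after ribosomal RNA depletion, although the labels name polyA RNA. Alignment by the authors used STAR and the mm10 genome, and HT-seq gave the deposited raw counts on RefSeq genes, which are the only values used here. They also deposited normalized counts, a signal scaled for library size. Columns of their own comparison, the log2 fold changes, the ranks and the p-values with false discovery rates from EdgeR, were deposited too and not used. Neither strand setting nor the handling of reads shared by several genes is stated. In the count table the name of E18 replicate 1 holds 2 and 5 besides 1, and whether it is a pool is not given in the sources used here. Within each age, samples differed beyond sampling noise (chi-square of 30.5 to 141 per degree of freedom), so the spread between samples limits the precision.

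Counts were TMM-normalized and tested by edgeR 4.0.16 (R 4.3.3; quasi-likelihood test; expression filter with a minimum count of 10; Benjamini-Hochberg adjustment over all genes tested). The same steps were also run on counts simulated from the means and spread of these samples. CPM use TMM-scaled library sizes, and a log2 CPM for likeness has 0.05 added. Exon lengths and coordinates are those of GENCODE M21 (mm10), and promoter windows are those of RefSeq (GRCm38.p6), found for 6 of the 8 genes. Alternatives were DESeq2 1.42.0, RLE factors, the exact test, other filters and the omission of each sample. The use of E18 replicate 4 alone was added after seeing the data. The genes and lists were chosen with earlier results of these data known. Named are the 8 genes, other family genes with reads, genes of the fixed lists past the threshold or contrasted with them, marker genes, and the 3 genes most like each tested gene. A530058N18Rik was named after its value was seen. Some genes of the lists are counted but not reported here by name.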

Additional observations from a re-analysis of the deposited data

How the results depend on the processing

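Gjd2 passed under each alternative run. DESeq2, RLE factors, the exact test and no filter kept 4 of the 8 genes called, and a minimum mean of 1 CPM kept 3, since Gja10 is below it. Leaving out 1 sample at a time gave 1 to 5 genes called, with 1 without E18 replicate 3, 2 without E18 replicate 1 or P5 replicate 9 and 5 without P5 replicate 8. The same omissions gave 4575 (without E18 replicate 3) to 8796 calls over all genes, 0 to 2 for other connexins and pannexins, 3 to 4 for scaffolds, 5 to 10 for kinases, 7 to 9 for purinergic partners and 1 to 2 for other large-pore channels. Called connexins and pannexins outside the 8 numbered 2, and 1 with DESeq2 or with a minimum mean of 1 CPM, which lets fewer genes be tested. With E18 replicate 4 as the only E18 sample, in a fit that takes its spread from the P5 samples, calls were 1633 over all genes, 1 of the 8 (Gjd2, whereas Gjc1 had a log2 fold change of 0.47 at an adjusted p of 0.328 and Panx2 -0.50 at 0.337), 0 of the other connexins and pannexins, 1 scaffold, 1 kinase, 4 purinergic partners and 0 other large-pore channels. Fewer samples were fitted there. Gjb1 reversed without P5 replicate 6 (log2 fold change 0.23, from -0.74 to 0.23 over the omissions), not past the threshold. That sample had 65 reads, against 29 and 21 in P5 replicates 8 and 9 and 21, 35 and 32 at E18. The higher P5 mean thus came from this sample, and why it was high was not tested. By longest transcript, Gjd2 held 70.1% and Gjc1 29.3% of the connexin level at E18. No paired analysis was possible because the E18 and P5 samples share no replicate number. Depth limits Gja1, Gjb2 and Gjb6, which had at most 15 reads in any sample. The edgeR fit without a filter gave them adjusted p values of 0.901, 0.197 and 0.520.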
